A study of Mus musculus with 9 samples.

Results

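The 30 genes described here encode the enzymes that make cholesterol and the proteins that control, import, move, store, export and hydroxylate it, measured by RNA sequencing in mouse omenta seeded with melanoma. They were taken as a list of mouse symbols that was chosen with earlier results of these data known. The symbols were matched to the Ensembl identifiers of the count table, in which all 30 were found among 55359 genes. All 30 were among the 17123 genes with enough counts to be tested. By role, 18 are synthesis enzymes, 4 control synthesis, 2 act in uptake and movement inside the cell, 5 act in efflux and storage, and 1, Ch25h, makes an oxysterol.

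All 9 mice were C57BL/6 animals aged 7 to 10 weeks that carried B16-OVA, a melanoma line engineered to express ovalbumin, of which 500000 cells had been placed in the peritoneal cavity 6 days before treatment. The omentum, an apron of fat and milky spots in the abdomen, is where such cells lodge. The PBS group (3 mice: PBS 1, PBS 2 and PBS 3) received saline, by a route that the sample titles do not give. The IP group (IP 2, IP 3 and IP 4) received OT-I T cells, which recognise ovalbumin and had been electroporated with IL-12 mRNA, into the peritoneal cavity, and the IV group (IV 1, IV 2 and IV 4) received them into a vein. Tissue was taken 18 h later. Every mouse carried tumour. T cells lacking the IL-12 mRNA were not given to any mouse described here, and what the cells, the cytokine and the injection each contribute cannot be told apart.

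Cells make cholesterol from acetyl-CoA through mevalonate, isoprenoids, squalene and lanosterol. When sterol in the endoplasmic reticulum is low, SCAP escorts the transcription factor SREBP-2, the product of Srebf2, to the Golgi for activation, and it then induces nearly every gene of the route. INSIG proteins hold SCAP back when sterol is plentiful. Oxysterols activate the LXR receptors, encoded by Nr1h2 and Nr1h3, which induce the exporters Abca1 and Abcg1, and macrophages stimulated by interferon make 25-hydroxycholesterol through Ch25h.

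Library totals ranged from 7379798 counts in IV 2 to 44626843 in PBS 3, and the share of counts from the 30 genes was 0.193% to 0.236% in PBS, 0.118% to 0.121% in IP and 0.142% to 0.17% in IV. Libraries also stood apart in ways that the groups do not describe. The share of pancreatic acinar markers was 2.28% in IV 1, 1.73% in IP 4 and 0.426% in IV 2, and at most 0.0197% elsewhere. Library IV 4 was nearest to PBS 3: over the log2 levels of all tested genes, whose values are not independent, its r was 0.9815 with PBS 3, 0.9582 and 0.9589 with PBS 1 and PBS 2, 0.9484 and 0.9531 with IV 1 and IV 2, and 0.9454 to 0.9598 with the IP libraries. All 8 adipocyte and all 6 mesothelial markers were detected in each group, and the 4 hepatocyte markers together stayed between 0.296 and 1.38 CPM in all 9 libraries. Because the tissue was sequenced in bulk, fewer cells of a kind and less RNA per cell cannot be told apart in any result that follows.

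Promoters of the set are shown first because most of its genes moved together. Windows of 250 bases before the gene start were available from RefSeq (GRCm38.p6) for 25 of the 30 genes, with the strand of the gene read 5′ to 3′. CCAAT, the letters bound by the factor NF-Y, which works beside SREBP-2, was searched on both strands, so that ATTGG also counts. It was present in 19 of the 25 genes (76%) and in 14 of the 15 enzymes with a window, against 37.5% of all 27025 genes with a window. The 10 letters of the sterol regulatory element as first described occurred in none of the 25 (0.0814% of all genes), whereas its inner letters TCACCCCA, searched after that result was known, occurred in Hmgcs1 and Srebf2 (1.54% of all genes). The 4 windows below show the gene with 5 CCAAT matches (Mvk), both genes with TCACCCCA, and Ebp, an enzyme gene that did not fall. Capitals mark CCAAT or ATTGG and TCACCCCA.

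Hmgcs1, chr13:119690101-119690350, plus strand: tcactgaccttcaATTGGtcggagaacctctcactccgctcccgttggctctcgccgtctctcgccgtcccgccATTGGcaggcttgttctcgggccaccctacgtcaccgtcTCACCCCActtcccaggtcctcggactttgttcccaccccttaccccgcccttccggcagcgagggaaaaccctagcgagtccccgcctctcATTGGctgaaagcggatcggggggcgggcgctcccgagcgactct
Srebf2, chr15:82147019-82147268, plus strand: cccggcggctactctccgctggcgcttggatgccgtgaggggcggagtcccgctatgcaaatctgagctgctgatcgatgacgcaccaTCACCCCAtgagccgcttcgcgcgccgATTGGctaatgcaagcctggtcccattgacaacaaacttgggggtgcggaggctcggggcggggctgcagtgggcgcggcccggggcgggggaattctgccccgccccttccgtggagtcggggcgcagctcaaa
Mvk, chr5:114444019-114444268, plus strand: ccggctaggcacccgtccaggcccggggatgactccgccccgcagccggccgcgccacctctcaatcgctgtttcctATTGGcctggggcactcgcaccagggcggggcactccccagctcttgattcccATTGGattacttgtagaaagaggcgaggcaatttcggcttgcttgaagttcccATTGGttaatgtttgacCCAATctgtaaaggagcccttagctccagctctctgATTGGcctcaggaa
Ebp, chrX:8193513-8193762, minus strand: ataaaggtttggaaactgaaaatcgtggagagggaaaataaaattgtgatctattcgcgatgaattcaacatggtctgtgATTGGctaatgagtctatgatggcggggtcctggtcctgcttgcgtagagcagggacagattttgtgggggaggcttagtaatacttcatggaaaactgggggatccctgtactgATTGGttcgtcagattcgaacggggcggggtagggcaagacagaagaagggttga

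The window of Hmgcs1 held 3 CCAAT matches and that of Srebf2 held 1. Ebp held 2, as did Idi1, the enzyme gene with the deepest fall. Pmvk, another enzyme that did not fall, held 1 over its 2 start sites, and Acat2, which fell, held none. The LXR element, a spaced repeat of AGGTCA, was found in none of the 25 (0.0148% of all genes). The STAT letters TTCNNNGAA were found in Ebp only (8.13% of all genes), as were the interferon element letters (3.46% of all genes). No window of Ch25h, Abca1, Nr1h2 or Nr1h3 held any of the motifs searched. These matches describe letters in a short window and not sites.

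After IP delivery transcripts of the route to cholesterol were lowered at almost every step measured. Of the 18 synthesis enzymes 16 fell, 0 rose and 2 did not pass the test, with a median log2 fold change of -1.56 (range -2.75 to 0.33), where the median of all tested genes was 0.02. Over the whole set 20 of 30 genes fell and 6 rose, against 14.2% of all tested genes lower and 18.7% higher in the same comparison. Because the list was chosen with earlier results of these data known, such shares, here and below, describe it and do not test it. Tests are edgeR's quasi-likelihood test with Benjamini-Hochberg adjustment over all tested genes and a threshold of 0.05. SE is the standard error of the log2 fold change, and levels are CPM (counts scaled to the library total, here with TMM, which adjusts for library composition).

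**Figure D1:**
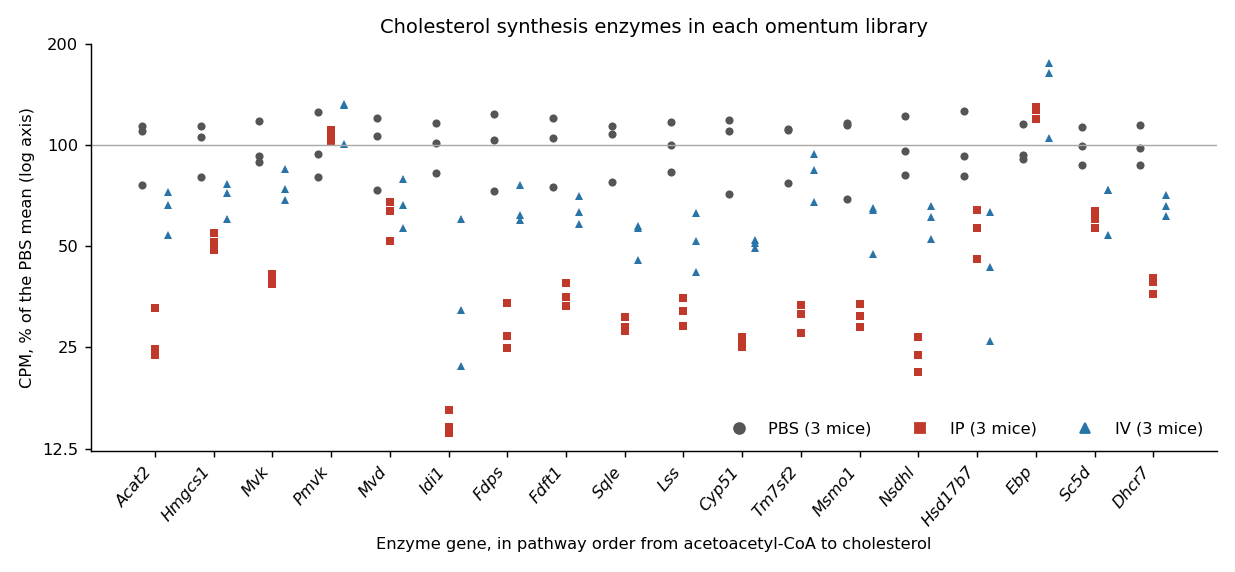
Level of each of the 18 synthesis enzymes in every library as a percentage of its PBS mean, on a log axis, with genes in pathway order (grey circles PBS, red squares IP, blue triangles IV, 3 mice each, points are single libraries). The IP points lie lowest at Idi1, where they average 14.9% of the PBS mean, and lie above 100% only at Pmvk and Ebp.

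The first steps measured, which lead towards mevalonate and then phosphorylate it, were lowered to different degrees. Acat2, the cytosolic thiolase that joins acetyl-CoA units, measured 48.8, 46.9 and 32.4 CPM in PBS 1, PBS 2 and PBS 3 and 10.6, 10.1 and 14 CPM in IP 2, IP 3 and IP 4. The groups did not overlap, and the log2 fold change was -1.88 ± 0.20 (SE; adjusted p = 7.65e-05). Hmgcs1, the HMG-CoA synthase, measured 115, 107 and 81.4 CPM in PBS and 52.2, 49.4 and 55.4 CPM in IP (-0.95 ± 0.15, adjusted p = 0.000754). Its IP mean was 51.8% of its PBS mean, and that of Acat2 27.1%. Mevalonate kinase, encoded by Mvk, went from 41 ± 6.46 CPM (SD, n = 3) to 16.4 ± 0.588 CPM (-1.33 ± 0.15, adjusted p = 8.66e-05).

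Of the next enzymes, Pmvk, the phosphomevalonate kinase, did not follow. It measured 23.5, 31.3 and 20 CPM in PBS and 25.7, 26.8 and 27.7 CPM in IP, with every IP value inside the PBS range (0.10 ± 0.18, adjusted p = 0.701). Mvd, the decarboxylase that comes after it, was 43.5 ± 10.5 CPM in PBS and 26.6 ± 3.57 CPM in IP (-0.71 ± 0.20, adjusted p = 0.0187). That call was lost without PBS 1, PBS 2, IP 2 or IP 3, with adjusted p-values of 0.0531 to 0.0838.

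The isoprenoid and squalene enzymes fell as well, and of them only Idi1 fell further than Acat2. Idi1, which isomerises the basic isoprenoid unit, measured 15.4, 13.4 and 11 CPM in PBS and 1.84, 2.16 and 1.92 CPM in IP, the deepest fall of the 30 genes (-2.75 ± 0.34, adjusted p = 0.000173). The lowest PBS library was still well above the highest IP library. Fdps, farnesyl diphosphate synthase, went from 33.6 ± 8.54 to 9.64 ± 1.58 CPM (-1.80 ± 0.21, adjusted p = 0.000128), and Fdft1, squalene synthase, from 58.3 ± 13.4 to 20.9 ± 1.65 CPM (-1.48 ± 0.17, adjusted p = 0.000131). Sqle, the squalene epoxidase that is a rate-limiting step of the sterol branch, measured 132, 124 and 89.7 CPM in PBS and 33.2, 32.2 and 35.6 CPM in IP (-1.77 ± 0.16, adjusted p = 3.83e-05). Lss, which closes the rings to lanosterol, fell to 32% of its PBS mean (-1.64 ± 0.18, adjusted p = 8.59e-05).

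Among the enzymes that turn lanosterol into cholesterol, 7 of 8 fell. Cyp51, the lanosterol demethylase, measured 211, 227 and 137 CPM in PBS and 51.6, 48 and 50.9 CPM in IP (-1.94 ± 0.17, adjusted p = 3.53e-05), so that the IP libraries lay close together while PBS 3 lay below the other PBS libraries. Nsdhl, a sterol dehydrogenase of the demethylation complex, measured 85.9, 67.6 and 57.3 CPM and 14.9, 16.6 and 18.9 CPM (-2.06 ± 0.17, adjusted p = 2.73e-05). Msmo1, the methylsterol oxidase that works with it, fell by 1.68 ± 0.21 on the log2 scale (adjusted p = 0.000158). Dhcr7, the last reductase of the pathway, fell by 1.38 ± 0.13 (adjusted p = 4.07e-05), and Sc5d, a desaturase, fell by 0.73 ± 0.15 (adjusted p = 0.00417). Hsd17b7, the ketosteroid reductase of the complex, was 24.1 ± 5.69 CPM in PBS and 13.4 ± 2.23 CPM in IP (-0.85 ± 0.28, adjusted p = 0.0405). Its call was lost without any 1 of PBS 1, PBS 2 or the IP libraries, with adjusted p-values of 0.0582 to 0.165. It was also lost when acinar level entered as a covariate (adjusted p = 0.252).

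Counts of Cyp51, Fdft1, Fdps and Tm7sf2 are less certain, since each shares exon bases with another protein-coding gene.

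A pair of enzymes that catalyse the same step differed in whether they passed. Tm7sf2, a sterol C14 reductase, measured 16.1, 16.3 and 11.2 CPM in PBS and 4.87, 4.02 and 4.58 CPM in IP (-1.69 ± 0.20, adjusted p = 0.000139). Lbr, which encodes a nuclear membrane protein with the same reductase activity, is not one of the 30 genes and was picked out after its values were seen. It measured 49.5, 40.7 and 54.3 CPM in PBS and 41.9, 39.7 and 36.9 CPM in IP (-0.29 ± 0.21, adjusted p = 0.337), and the groups overlapped. The difference between these fold changes was not tested.

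Ebp, the sterol isomerase, was the exception late in the route. It measured 67.6, 83.5 and 65.4 CPM in PBS and 86, 92 and 93.8 CPM in IP. All IP values lay above all PBS values, yet the difference did not pass (0.33 ± 0.18, adjusted p = 0.198, and 0.0436 without IV 4, which shares the fit). In IV it measured 127, 118 and 75.9 CPM, with IV 4 inside the PBS range (0.57 ± 0.18, adjusted p = 0.0599, and 0.00305 without IV 4). When acinar level entered as a covariate, its log2 fold change in IP was -0.02.

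Genes that control synthesis fell beside the enzymes. Srebf2 measured 226, 198 and 198 CPM in PBS and 90.8, 88.6 and 102 CPM in IP (-1.15 ± 0.14, adjusted p = 0.000138). Insig1, which encodes a partner of SCAP and is itself an SREBP-2 target, measured 165, 149 and 101 CPM in PBS and 21.5, 22 and 27.7 CPM in IP (-2.54 ± 0.20, adjusted p = 2.45e-05). Only Idi1 fell further among the 30 genes. Insig2, a second INSIG gene with another promoter, was 126 ± 21.8 CPM in PBS and 79.4 ± 2.03 CPM in IP (-0.66 ± 0.15, adjusted p = 0.00638, and 0.0561 when acinar level entered as a covariate). Scap was 106 ± 9.76 CPM in PBS and 83.6 ± 0.832 CPM in IP, which did not pass (-0.35 ± 0.13, adjusted p = 0.0573), although it passed in 8 of 18 alternative settings.

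Of the 2 genes of uptake and movement, 1 fell. Stard4, which carries cholesterol between membranes and is another SREBP-2 target, measured 81.2, 78.3 and 57.9 CPM in PBS and 23.7, 19.9 and 23.6 CPM in IP (-1.69 ± 0.17, adjusted p = 4.86e-05). Mylip, an LXR-induced ubiquitin ligase that degrades lipoprotein receptors, measured 31.1, 27.9 and 30.8 CPM in PBS and 36.1, 34.4 and 29.3 CPM in IP. Those values overlapped (0.15 ± 0.16, adjusted p = 0.505), and the sign turned on the deposited log2 CPM (-0.02). With acinar level as a covariate, Mylip passed as higher in IP (0.445, adjusted p = 0.031).

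**Figure D2:**
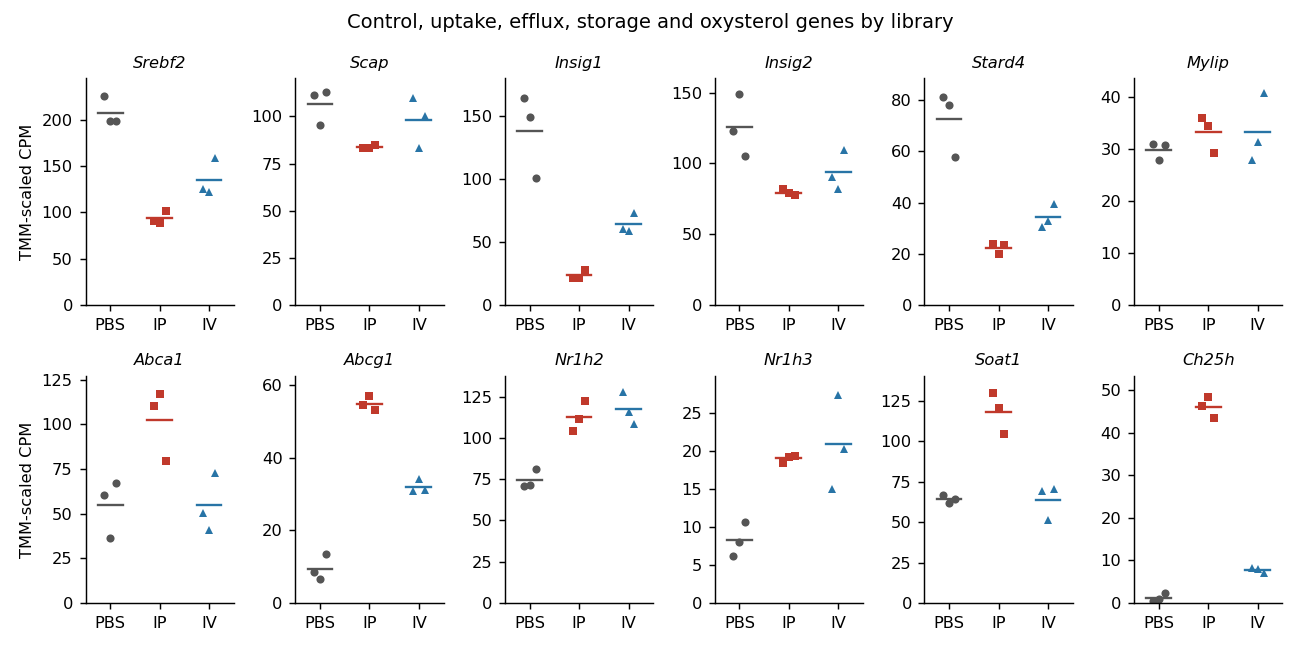
TMM-scaled CPM of 12 members that are not synthesis enzymes, by group (points are libraries, bars are group means, 3 mice each, every axis starts at 0). Insig1 and Stard4 are lowest in IP and between the others in IV, Abcg1 and Ch25h are highest in IP, and Soat1 averages 118 CPM in IP, 64.3 CPM in PBS and 63.6 CPM in IV.

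The efflux and storage genes went the other way, and all 5 rose after IP delivery. Abcg1, which exports cholesterol to lipoproteins, measured 8.38, 6.6 and 13.4 CPM in PBS and 54.4, 56.9 and 53 CPM in IP (2.52 ± 0.22, adjusted p = 3.4e-05). The other exporter, Abca1, measured 60.4, 36.5 and 67.2 CPM in PBS and 110, 117 and 79.4 CPM in IP (0.90 ± 0.26, adjusted p = 0.0228). Its call was lost without PBS 2, IP 2 or IP 3 (adjusted p up to 0.0883), with no filter on low counts (0.127) and on the deposited log2 CPM (0.0706). Soat1, which esterifies cholesterol for storage, measured 66.7, 61.9 and 64.4 CPM in PBS and 130, 121 and 105 CPM in IP (0.88 ± 0.14, adjusted p = 0.000912). Both LXR genes rose as well, Nr1h3 (LXR alpha) from 8.27 ± 2.25 to 19 ± 0.495 CPM (1.20 ± 0.24, adjusted p = 0.00328) and Nr1h2 (LXR beta) from 74.5 ± 5.89 to 113 ± 9.07 CPM (0.60 ± 0.12, adjusted p = 0.0029).

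Ch25h, the cholesterol 25-hydroxylase, changed most of the 30 genes. It measured 0.464, 1.04 and 2.28 CPM in PBS, which were 17, 27 and 112 counts, and 46.4, 48.4 and 43.5 CPM in IP, which were 1408, 1142 and 1292 counts. The groups lay far apart, with a log2 fold change of 5.14 ± 0.42 (adjusted p = 2.7e-05), or 35.4-fold. In IV it measured 8.3, 7.87 and 7.12 CPM, between the other groups and without overlap with either (2.57 ± 0.40 against PBS, adjusted p = 0.00333). The IV 4 library, which resembled PBS 3 across all genes, was near the other IV libraries for this gene.

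After IV delivery transcripts of the synthesis enzymes were lowered by a smaller median amount. Of the 18 enzymes 12 fell, 0 rose and 6 did not pass, with a median log2 fold change of -0.62 where the median of all genes was 0.04. Over the set 15 genes fell and 4 rose, against 5.66% of all tested genes lower and 10.4% higher. These IV calls are less secure than those in IP, since the number of enzymes that fell was 3 without PBS 1, 4 without IV 2, 7 without PBS 2 and 7 without IP 2, while it was 11 without IV 4. It was also 3 when PBS and IV were fitted without IP, and 4 when acinar level entered as a covariate. Lower calls over all genes dropped too, from 969 to 210 without PBS 1, 414 without IV 2, 761 without PBS 2 and 600 without IP 2, to 250 without IP in the fit and to 338 with the covariate. Without IV 4, in contrast, lower calls over all genes rose to 2248. IP and IV are compared with the same PBS libraries, so the results of the routes are not independent.

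The firmest falls in IV were in Stard4, Insig1, Cyp51, Sqle and Lss. Stard4 measured 30.3, 33 and 39.6 CPM in IV 1, IV 2 and IV 4 (-1.08 ± 0.16 against PBS, adjusted p = 0.00312). Insig1 measured 60.3, 59.1 and 73.5 CPM (-1.10 ± 0.19, adjusted p = 0.0047), and Cyp51 98.2, 95 and 100 CPM (-0.97 ± 0.17, adjusted p = 0.00502). All 3 lay between the IP and the PBS libraries without overlap. Sqle averaged 53.1% of its PBS mean (-0.91 ± 0.16, adjusted p = 0.0051) and Lss 52.1% (-0.93 ± 0.18, adjusted p = 0.00757). Srebf2 measured 125, 122 and 159 CPM (-0.62 ± 0.14, adjusted p = 0.0138, lost without PBS 1 or IV 2 at 0.0679 and 0.0532). That call was also lost with the acinar covariate (adjusted p = 0.0731) and without IP in the fit (0.0582).

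The other called enzymes fell less or less securely in IV. Nsdhl measured 42.9, 37 and 46.2 CPM (-0.74 ± 0.17, adjusted p = 0.0158) and Dhcr7 65.8, 61.5 and 71.2 CPM (-0.59 ± 0.13, adjusted p = 0.0128). Both lay between IP and PBS without overlap. Msmo1 fell by 0.76 ± 0.20 (adjusted p = 0.0287), Fdft1 by 0.64 ± 0.17 (adjusted p = 0.0305), Sc5d by 0.57 ± 0.15 (adjusted p = 0.0319), Hmgcs1 by 0.52 ± 0.15 (adjusted p = 0.039) and Acat2 by 0.65 ± 0.20 (adjusted p = 0.0482). Each of these 7 calls was lost in at least 1 alternative setting.

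The enzymes that did not pass in IV were Mvk, Pmvk, Mvd, Fdps, Tm7sf2 and Ebp. Mvk measured 34.8, 30.4 and 28.2 CPM, all below the PBS libraries (-0.40 ± 0.14, adjusted p = 0.0856). Tm7sf2 measured 13.7, 9.87 and 12.3 CPM and overlapped PBS (-0.27 ± 0.20, adjusted p = 0.381). Of the control genes, Insig2 (-0.42 ± 0.15, adjusted p = 0.0843) and Scap (-0.12 ± 0.13, adjusted p = 0.564) did not pass.

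Within IV the libraries differed most at Idi1 and Hsd17b7. Idi1 measured 2.91, 4.27 and 7.99 CPM in IV 1, IV 2 and IV 4 (-1.36 ± 0.32, adjusted p = 0.019), with IV 4 nearest to PBS. The call was lost without PBS 1 or IV 2 (adjusted p = 0.0791 and 0.071), with the acinar covariate (0.0783) and without IP in the fit (0.0591). Hsd17b7 measured 10.4, 6.27 and 15.2 CPM and was the only enzyme whose mean was lower in IV than in IP (-1.14 ± 0.29 against PBS, adjusted p = 0.0235, and up to 0.104 without PBS 1, IV 1 or IV 2). Its adjusted p against PBS was 0.123 with the acinar covariate and 0.0654 without IP in the fit. Over the 18 enzymes the median level was 68.6% of the PBS mean in IV 1, 57.4% in IV 2 and 65.2% in IV 4, against 34.1% to 36.3% in the IP libraries. IV 4 lay below every PBS library for 15 of 18 enzymes. The share of all tested genes for which it did so was not computed, so this count does not set the enzymes apart. Of the IV libraries, IV 4 was nearest to the PBS mean for 16 of the 30 genes, and over all genes it resembled PBS 3.

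Of the genes that rose in IV, Abcg1 measured 30.7, 34.2 and 31.2 CPM (1.75 ± 0.22, adjusted p = 0.00193). Nr1h3 measured 15, 27.3 and 20.3 CPM (1.32 ± 0.24, adjusted p = 0.00661) and Nr1h2 measured 128, 116 and 109 CPM (0.66 ± 0.12, adjusted p = 0.0058). These libraries lay above all PBS libraries. Abca1 and Soat1, in contrast, overlapped PBS, with log2 fold changes of 0.01 ± 0.26 (adjusted p = 0.992) and -0.01 ± 0.14 (adjusted p = 0.961).

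**Figure D3:**
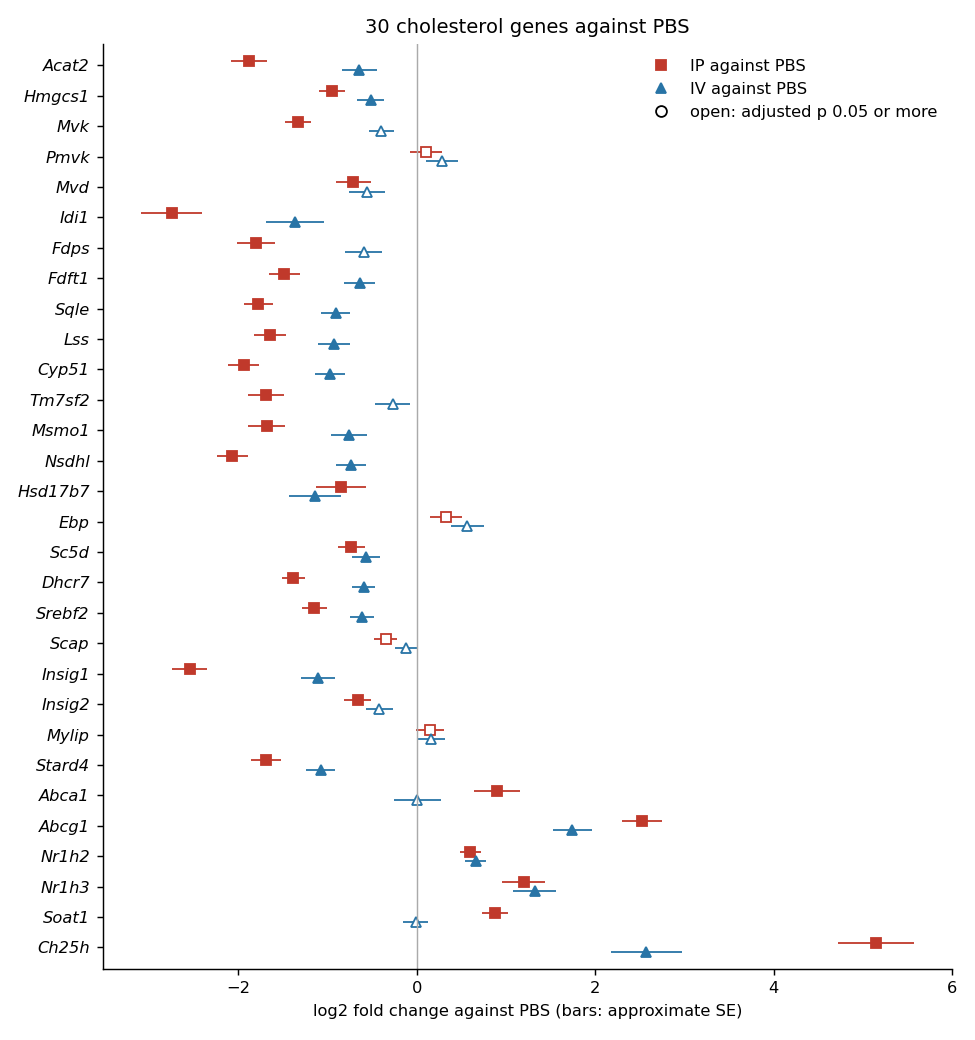
Log2 fold change against PBS of the 30 genes for IP (red squares) and IV (blue triangles), with approximate standard errors as bars and open symbols where the adjusted p was 0.05 or more. Synthesis and control genes lie left of 0 in both, except Pmvk and Ebp, and Ch25h lies farthest right, at 5.14 for IP and 2.57 for IV.

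The routes were then compared with each other, which tests whether their effects differed. In IP against IV, 15 of the 30 genes were lower and 3 higher, against 4.47% and 5.93% of all tested genes. Of the enzymes 12 were lower in IP, 0 higher and 6 not called, with a median log2 fold change of -0.85 where that of all genes was -0.02. The number of lower genes was 9 without IP 2 and 9 without IP 3. Lower calls over all tested genes also dropped, from 765 to 238 without IP 2 and to 294 without IP 3. Among the largest differences, Insig1 (-1.44 ± 0.19, adjusted p = 0.00152), Tm7sf2 (-1.42 ± 0.20, adjusted p = 0.00221) and Nsdhl (-1.33 ± 0.17, adjusted p = 0.0013) were lower in IP by more than a log2 unit. So were Idi1 (-1.38 ± 0.34, adjusted p = 0.0273), Acat2 (-1.24 ± 0.20, adjusted p = 0.00398) and Fdps (-1.20 ± 0.21, adjusted p = 0.0057). The call of Idi1 was lost in 7 of 18 alternative settings, that of Lss in 5, and those of Fdft1 and Msmo1 in 3 each. Srebf2 (-0.53 ± 0.14, adjusted p = 0.0328) and Stard4 (-0.61 ± 0.16, adjusted p = 0.0389) were also lower. Both calls were lost without any 1 IP library (adjusted p up to 0.149 for Srebf2 and 0.168 for Stard4), and that of Stard4 also without PBS 1, IV 2 or IV 4 (0.051, 0.0761 and 0.0623). Mvd, Hsd17b7, Sc5d, Ebp, Pmvk and Hmgcs1 were the enzymes that did not pass between the routes, with log2 differences of -0.43 to 0.29 and standard errors of 0.15 to 0.29.

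Ch25h was higher in IP than in IV by 2.57 ± 0.37 (adjusted p = 0.00236) and Soat1 by 0.89 ± 0.14 (adjusted p = 0.00377). For both, every IP library lay above every IV library. Abcg1 was higher by 0.78 ± 0.21 (adjusted p = 0.0432), a call lost when any 1 library other than PBS 2 or PBS 3 was left out (adjusted p up to 0.138). Abca1 differed by as much on average but varied more (0.89 ± 0.26, adjusted p = 0.0566), although it passed in 5 of 18 alternative settings. The LXR genes did not pass, at -0.06 ± 0.12 for Nr1h2 (adjusted p = 0.801) and -0.12 ± 0.24 for Nr1h3 (adjusted p = 0.802).

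Other genes of sterol metabolism from lists of related function were read from the same fit. Of 16 genes of lipoprotein uptake, lysosomal release and transfer, 9 rose and 4 fell in IP (median log2 fold change 0.48, all genes 0.02) and 2 rose and 3 fell in IV (0.15, all genes 0.04). Over all tested genes 18.7% rose and 14.2% fell in IP, and 10.4% rose and 5.66% fell in IV. The scavenger receptor genes Msr1 (37.9 ± 10.2 CPM in PBS, 156 ± 7.98 in IP, 83.3 ± 8.27 in IV) and Olr1 (1.1 ± 0.246, 8.9 ± 1.84 and 0.784 ± 0.443 CPM) rose in IP, and Olr1 was higher in IP than in IV by 3.50 ± 0.41 (adjusted p = 0.00084). Msr1 rose in IV as well (1.13 ± 0.18, adjusted p = 0.00335). Npc2, which hands cholesterol out of lysosomes, rose in IP by 1.13 ± 0.15 (adjusted p = 0.000305) and in IV by 0.53 ± 0.15 (adjusted p = 0.0398). Scarb1, the HDL receptor, fell by 1.04 ± 0.12 in IP (adjusted p = 0.000139) and by 0.59 ± 0.12 in IV (adjusted p = 0.0115). The lipoprotein receptor gene Lrp8 fell by 1.04 ± 0.20 in IP (adjusted p = 0.0027) and by 1.21 ± 0.21 in IV (adjusted p = 0.00488), and the routes did not differ beyond the test (0.16 ± 0.21, adjusted p = 0.686).

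Of 8 LXR targets outside the set, 2 rose and 3 fell in IP (median log2 fold change -0.21) and 3 rose and 0 fell in IV (0.04). With 18.7% of all tested genes higher and 14.2% lower in IP, and 10.4% and 5.66% in IV, counts this small do not set the list apart. The sterol exporter genes Abcg5 (-1.76 ± 0.50, adjusted p = 0.0199) and Abcg8 (-1.57 ± 0.30, adjusted p = 0.00224) fell in IP, both from a PBS mean of at most 4.21 CPM. The small GTPase gene Arl4c (1.11 ± 0.35, adjusted p = 0.0308) and the apolipoprotein gene Apoc1 (0.94 ± 0.27, adjusted p = 0.0218) rose in IP. Both also rose in IV, Arl4c by 1.31 ± 0.35 (adjusted p = 0.0304) and Apoc1 by 0.99 ± 0.28 (adjusted p = 0.0347). Pltp, a phospholipid transfer protein, rose in IV (0.92 ± 0.21, adjusted p = 0.0145) and did not pass in IP (0.49 ± 0.20, adjusted p = 0.0901).

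Of 11 other isoprenoid and sterol enzymes, of which Faxdc2 was not matched by symbol, 10 were tested, and 2 rose and 2 fell in IP (median log2 fold change -0.10) and 1 rose and 0 fell in IV (0.09). These shares are near those of all tested genes, at 18.7% higher and 14.2% lower in IP and 10.4% and 5.66% in IV. Cyp7b1, which hydroxylates the product of Ch25h further, went from 1.52 ± 0.371 to 4.58 ± 0.923 CPM (1.58 ± 0.27, adjusted p = 0.00131), and Hsd3b7, which inactivates the resulting ligand, from 0.0959 ± 0.017 to 0.686 ± 0.414 CPM (2.78 ± 0.61, adjusted p = 0.00555). Those 2 changes are for IP. In IV Hsd3b7 also rose (2.14 ± 0.65, adjusted p = 0.0474), while Cyp7b1 did not pass (0.51 ± 0.28, adjusted p = 0.247). Hsd3b7 was near the limit of detection in PBS. Cyp27a1, a mitochondrial sterol hydroxylase, averaged 3.21 CPM in PBS, 2.71 in IP and 7.83 in IV. It was lower in IP than in IV (-1.49 ± 0.39, adjusted p = 0.0348), while neither route passed against PBS (adjusted p = 0.653 in IP and 0.0502 in IV). Acat1, the mitochondrial thiolase, fell by 0.65 ± 0.15 (adjusted p = 0.00703) and Erg28, a scaffold of the demethylation complex, by 0.50 ± 0.18 (adjusted p = 0.04998). Gpr183, the receptor that guides immune cells along the ligand made by Ch25h and Cyp7b1, measured 3.06, 3.72 and 3.84 CPM in PBS, 6.16, 4.53 and 6.27 CPM in IP and 4.95, 12 and 6.46 CPM in IV. It passed in IV (1.10 ± 0.31, adjusted p = 0.0375) and not in IP (0.68 ± 0.31, adjusted p = 0.121), and the difference between the routes did not pass (-0.42 ± 0.31, adjusted p = 0.441). The 4 B cell markers summed to 42.7 to 52.6 CPM in PBS, 27.5 to 50.9 CPM in IP and 103 to 387 CPM in IV, with 4 of 4 higher in IV and 0 of 4 in IP. IV 2 was the highest library for both, and the part of B cells in the Gpr183 result was not tested.

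Markers of dividing cells and of melanoma moved with the synthesis enzymes. The summed level of 6 proliferation markers was 1100 to 1260 CPM in PBS, 510 to 585 CPM in IP and 724 to 920 CPM in IV, with 6 of 6 lower in IP and 4 of 6 lower in IV. The 6 melanoma markers summed to 24800 to 27600 CPM in PBS, 13200 to 14800 CPM in IP and 17600 to 22800 CPM in IV, with 4 of 6 and 3 of 6 lower. None of these 12 markers was at 0. The summed level of the 18 enzymes averaged 42.6% of PBS in IP and 66.9% in IV, and that of the proliferation markers 44.6% and 68.4%.

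**Figure D4:**
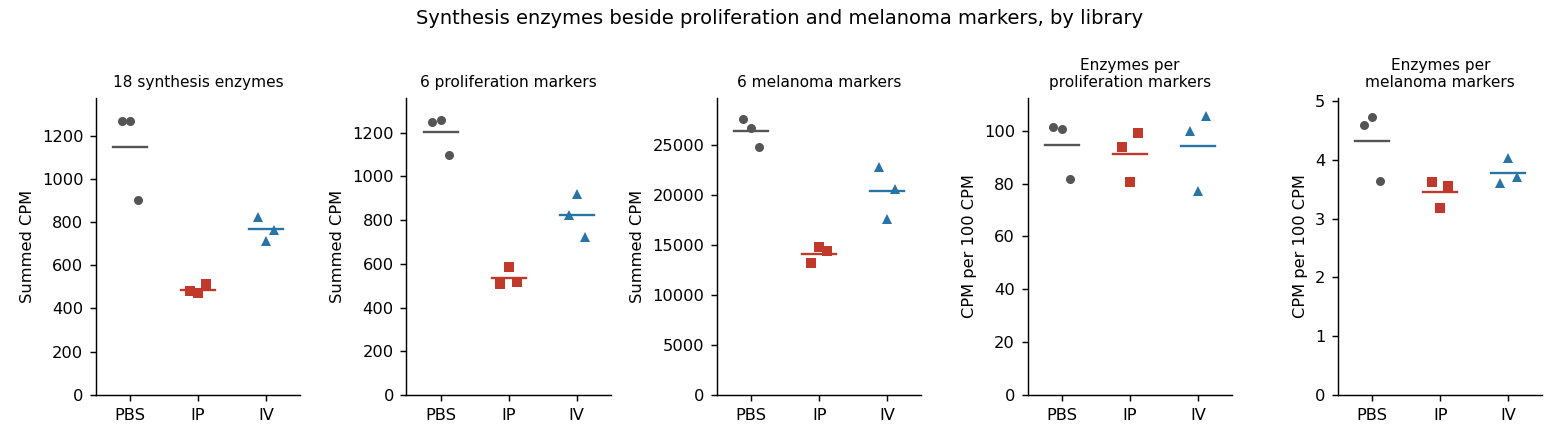
Summed CPM of the 18 synthesis enzymes, of 6 proliferation markers and of 6 melanoma markers, and the enzymes per 100 CPM of either marker list, by group (points are libraries, bars are group means, 3 mice each, axes start at 0). The first 3 panels are lowest in IP, and the enzymes per 100 CPM of proliferation markers overlap in all groups, with means of 94.7 in PBS, 91.3 in IP and 94.4 in IV.

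Set against these markers, in a description chosen after the values were seen, the enzymes summed to 94.7 ± 11.1 CPM per 100 CPM of proliferation markers in PBS, 91.3 ± 9.5 in IP and 94.4 ± 15 in IV (SD, n = 3), and the groups overlapped. Per 100 CPM of melanoma markers they summed to 4.32 ± 0.599, 3.46 ± 0.24 and 3.78 ± 0.227 CPM, with the IP libraries at 3.18 to 3.63 and PBS 3 at 3.64. A sum is weighted towards abundant genes such as Cyp51 and Ebp. As a median over the 18 enzymes, the level per proliferation marker was 70.6% to 84.9% of the PBS mean in the IP libraries. It was 88.4% to 109.5% in the PBS libraries and 75.6% to 109.2% in the IV libraries, which overlapped both. Insig1 per proliferation marker was 39% of its PBS mean in IP and 69.9% in IV, with every IP library below every PBS library. The adipocyte markers summed to 419 to 707 CPM in PBS, 379 to 537 CPM in IP and 665 to 848 CPM in IV, so they did not fall with the enzymes in IV. The part of cell composition in these falls was not tested.

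Many markers of myeloid and T cells rose in both routes, as did Ch25h, Abcg1, Nr1h2 and Nr1h3. Abca1 and Soat1 passed as higher in IP and not in IV, and of the 2 only Soat1 passed between the routes. The 8 macrophage markers summed to 615 to 1010 CPM in PBS, 1460 to 1580 CPM in IP and 1460 to 1870 CPM in IV (6 higher and 1 lower in IP, 5 higher and 0 lower in IV), and the 6 monocyte markers to 85 to 262, 1220 to 1300 and 651 to 1010 CPM (6 and 5 higher, 0 lower). The 6 neutrophil markers summed to 10.4 to 22.1, 131 to 173 and 29.2 to 183 CPM (6 higher in IP, 2 in IV), and the 6 T cell markers to 24.2 to 71.6, 178 to 196 and 75.1 to 192 CPM (5 higher in each). None of these markers was at 0 throughout a group. Per 100 CPM of macrophage markers, Ch25h was 0.0698 to 0.225 CPM in PBS, 2.75 to 3.31 CPM in IP and 0.424 to 0.486 CPM in IV, and per 100 CPM of monocyte markers it was 0.546 to 0.869, 3.57 to 3.74 and 0.776 to 1.09 CPM. On both scales its IP libraries lay above all others. Abcg1 per 100 CPM of macrophage markers was 1.07 to 1.32 CPM in PBS, 3.35 to 3.89 CPM in IP and 1.64 to 2.13 CPM in IV, without overlap, but per monocyte marker the groups overlapped. Per macrophage marker, Abca1 was 92.8% of its PBS mean in IP and 45.5% in IV, Soat1 87.7% and 42.5%, Nr1h3 113.5% and 111.6%, and Nr1h2 72.9% and 67.7%. Per monocyte marker the same values were 20.2% and 17.5% for Abca1, 19.8% and 16.8% for Soat1, 27.7% and 46.3% for Nr1h3, and 16.9% and 26.9% for Nr1h2, so they depend on the list chosen. Whether more of these cells or more transcript per cell underlies these rises was not tested.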

How the data were processed

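Per the labels, poly(A) RNA of 9 omenta was made into directional libraries and sequenced in pairs. The count table deposited by the authors holds whole-number counts of 55359 genes, and their second table holds log2 CPM of 18833 genes, each equal, to within 5e-14, to log2 of the CPM from that count plus 0.5. The submitters' processing notes list STAR 2.7.9, featureCounts, limma and mm39 without roles. The annotation release and the strand setting were not stated in these sources.

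Symbols came from GENCODE M21 on GRCm38, which named 52083 of the 55359 genes. No column was without a sample. In that annotation 4 members (Cyp51, Fdft1, Fdps and Tm7sf2) share exon bases with another protein-coding gene, so their counts are uncertain. Groups of 3 libraries follow the sample titles. Counts were analysed in R 4.3.3 with edgeR 4.0.16: filterByExpr left 17123 genes, with TMM scaling and 1 robust quasi-likelihood fit of all 9 libraries, tested on simulated data. SE was derived from the log2 fold change and its F statistic. Tests are two-sided. Groups of 3 measure the spread between these mice, and totals of 7379798 to 44626843 counts per library limit precision, most in IV 2. No pair of libraries of a group agreed within sampling noise (smallest chi-square per degree of freedom 7.67).

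All 30 members are named, with genes from among the 4 of smallest p in each other sterol list and comparison, Lbr and the marker sums being exceptions chosen after their values were seen. Members and lists were chosen with earlier results of these data known. Alternatives used DESeq2 1.42.0, limma 3.58.1 (voom, and the deposited log2 CPM), other filters, the compared groups only, a replicate block, an acinar covariate, and each library left out.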

Additional observations from a re-analysis of the deposited data

How the results depend on the processing

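With each library left out in turn, the members lower in IV against PBS numbered 5 to 18 and the lower enzymes 3 to 14, and the members lower in IP against IV numbered 9 to 15. Over all genes the lower calls then ranged from 210 to 2248 in IV against PBS and from 238 to 1164 in IP against IV. In IV against PBS the acinar covariate left 6 lower members and 4 lower enzymes, and a fit of only the compared groups left 5 and 3. The cause was not tested beyond the fewer samples in the latter. In IP against PBS the lower members stayed at 18 to 21 and the higher at 5 to 7 over all 18 alternatives. With the replicate block the lower members were 20, 16 and 10 in IP against PBS, IV against PBS and IP against IV. Equal mouse numbers are not said to mark related mice, and deviations of same-numbered libraries correlated at -0.399 to 0.1.

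Signs turned only where the log2 value was small and not called: in IP against PBS for Pmvk (-0.115 with the acinar covariate, -0.043 on the deposited log2 CPM, and -0.036 to 0.265 with a library left out), Ebp (-0.021 with the covariate) and Mylip (-0.021 on the deposited log2 CPM). In IV against PBS they turned for Mylip (-0.026 to 0.275 with a library left out), for Abca1 (-0.031 with DESeq2 size factors, -0.03 with no filter, -0.042 in DESeq2, -0.063 on the deposited log2 CPM, -0.261 to 0.178 with a library left out, below 0 without PBS 2 at -0.248 and without IV 4) and for Soat1 (0.007 with the strict filter, 0.117 with the covariate, 0.006 in voom, -0.098 to 0.117 with a library left out, above 0 without PBS 1 at 0.009 and without IV 2). In IP against IV they turned for Mvd (0.051 with the block), Mylip (0.02 with the covariate, -0.124 to 0.176 with a library left out, above 0 without IP 4 at 0.079 and without IV 4), Nr1h2 (-0.12 to 0.011) and Nr1h3 (-0.309 to 0.102). On the deposited log2 CPM, which has no composition scaling, the median of all genes in IP against PBS was -0.14, and 42.7% of calls over all genes were higher against 56.8%.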
